A study of Mus musculus with 27 samples.

Results

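The genes described here are 28 genes of cholesterol synthesis and handling, chosen as a list of gene symbols. Their measured values were not part of the rule, but earlier results of these data were known when the list was chosen. The count table held 53379 genes, of which 18758 passed the filter on low counts, and all 28 members were among them. They comprised 7 enzymes of the early steps, 11 enzymes from squalene to cholesterol, 4 regulators and 6 genes of cholesterol transport, storage and oxidation. Their RNA was measured by bulk sequencing in hepatic stellate cells (HSCs), the retinoid-storing cells of the liver that turn into matrix-producing myofibroblasts after injury.

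There were 27 libraries in 7 groups, all from male Balb/c mice whose HSCs were sorted by ultraviolet signal after liver perfusion and lysed without culture. Healthy HSCs (n = 4) came from mice of 10 to 12 weeks that received no injection, so the comparison with them holds the mineral oil and the injection as well as the toxin. Acute injury was 1 intraperitoneal injection of carbon tetrachloride (CCl4, 0.5 µL per g body weight, in mineral oil) at 10 to 12 weeks of age, and the cells were collected 24 h later in 3 libraries, 72 h later in 4 and 7 d later in 4. Chronic injury was 8 injections of the same dose over 4 weeks, begun at 8 to 10 weeks of age, and they were collected at 24 h, 72 h or 14 d from the last, with 4 libraries at each time. The methods call the repeats biological, but whether a library held cells of 1 mouse is not given in the sources used here, so p-values measure the spread between these libraries.

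Cholesterol is built from acetyl-CoA. The early steps make mevalonate and then isoprenoids, squalene synthase (Fdft1) commits the isoprenoid chain to sterols, and the later enzymes oxidize, close and trim the ring system. The transcription factor encoded by Srebf2 drives these genes when sterols are scarce: Scap escorts it out of the endoplasmic reticulum and the Insig proteins hold it back. Excess cholesterol is esterified by Soat1, hydroxylated by Ch25h to 25-hydroxycholesterol, an oxysterol that lowers processing of the factor, or exported by Abca1 and Abcg1, known targets of the oxysterol-sensing liver X receptors. HSCs are known for lipid droplets that hold retinyl and cholesteryl esters.

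Promoter windows of 250 bases before the annotated start were available for 22 of the 28 genes (RefSeq, GRCm38.p6, a C57BL/6J reference, whereas the mice were Balb/c). Windows were searched on both strands for the sterol regulatory element TCACNCCAC, the CCAAT box CCAAT, the GC box GGGCGG and the E-box CACGTG. Hmgcs1 alone among the 22 held TCACNCCAC, which was present in 1.2% of the 11687 tested genes with a window. CCAAT was present in 18 of the 22, against 39.7% of the tested genes with a window, and GGGCGG in 19 of 22, against 60.1%. CACGTG was present in 6 of 22, against 9.5%. A gene was counted when any of its windows held the element, and some genes, such as Insig2 and Dhcr7, had several. The CCAAT of Dhcr7 lay in a window from 143829964, inside the gene, which starts at 143823145 in GENCODE M21. For Cyp51, the part of the window before the first base of the gene held no CCAAT. These counts describe letters in a window and not binding. The genes with a CCAAT box included Ebp, Sc5d and Tm7sf2, which were called in no comparison below with the fit used throughout.

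The sequences of 5 members called higher 24 h after injury are printed to show these elements, 5′ to 3′ on the strand of the gene, with matches in capitals in either orientation. They lie at chr13:119690101-119690350 (plus strand), chr8:122443423-122443672 (minus), chrX:72918271-72918520 (plus), chr1:169969242-169969455 (minus) and chr5:28071162-28071362 (plus). Of the windows, Hsd17b7 and Insig1 are shown only up to the first base of the gene in GENCODE M21, which leaves 214 and 201 bases.
Hmgcs1: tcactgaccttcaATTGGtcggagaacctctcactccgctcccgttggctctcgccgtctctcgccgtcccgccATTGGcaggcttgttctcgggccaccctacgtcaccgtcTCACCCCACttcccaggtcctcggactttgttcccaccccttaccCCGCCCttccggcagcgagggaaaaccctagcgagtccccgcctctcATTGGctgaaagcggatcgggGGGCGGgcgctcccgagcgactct
Mvd: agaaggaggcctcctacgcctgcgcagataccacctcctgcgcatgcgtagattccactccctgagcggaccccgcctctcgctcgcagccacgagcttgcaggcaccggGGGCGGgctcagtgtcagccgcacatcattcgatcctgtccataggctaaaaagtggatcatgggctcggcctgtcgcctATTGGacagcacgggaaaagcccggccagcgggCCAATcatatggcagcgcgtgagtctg
Nsdhl: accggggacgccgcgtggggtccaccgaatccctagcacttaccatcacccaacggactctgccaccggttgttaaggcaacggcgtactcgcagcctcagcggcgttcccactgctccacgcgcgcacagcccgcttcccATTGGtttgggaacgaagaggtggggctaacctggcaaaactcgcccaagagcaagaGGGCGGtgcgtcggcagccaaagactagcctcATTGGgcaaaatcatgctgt
Hsd17b7: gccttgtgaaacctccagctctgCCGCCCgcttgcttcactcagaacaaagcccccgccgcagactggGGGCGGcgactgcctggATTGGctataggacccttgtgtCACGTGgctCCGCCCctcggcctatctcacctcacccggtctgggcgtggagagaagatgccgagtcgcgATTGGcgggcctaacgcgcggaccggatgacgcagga
Insig1: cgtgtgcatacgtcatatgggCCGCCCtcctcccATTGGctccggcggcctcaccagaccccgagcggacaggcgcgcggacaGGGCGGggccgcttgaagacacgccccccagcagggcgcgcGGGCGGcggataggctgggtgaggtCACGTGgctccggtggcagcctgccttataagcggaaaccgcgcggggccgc

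Library depth and cell composition frame what follows. Total counts per library ran from 6.3 M to 13.1 M (mega, M), with 19 libraries above 9 M and 8 below: replicates 1 and 2 of chronic 24 h and of chronic 72 h, and all 4 chronic 14 d libraries. These are called higher and lower depth below, and at chronic 14 d depth and group cannot be told apart. HSC markers (10 of 10 detected in each group) summed to 14789 to 45926 CPM (counts per M counts of the TMM-scaled library), so markers of the labelled cell type were present throughout. Their sum was 25810 to 45926 CPM in healthy HSCs. It lay wholly below that range at acute 72 h (15123 to 18979), acute 7 d (17864 to 20538), chronic 24 h (14789 to 17683) and chronic 72 h (20919 to 23550). Markers of other liver cells were detected too. Hepatocyte markers summed to 660 to 1144 CPM in 3 healthy libraries but 5203 CPM in healthy replicate 4. At acute 24 h, where Fabp1 was at 0, they summed to 25.5 to 369 CPM. They were at 2129 to 3940 CPM at acute 7 d, at 2675 to 4287 CPM at chronic 72 h and at 11205 CPM in chronic 14 d replicate 2. Macrophage markers summed to 135 to 589 CPM in healthy HSCs and 3985 to 10334 CPM at acute 7 d. In bulk RNA, a change in the number of cells of a type and a change in RNA per cell cannot be told apart.

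At 24 h after 1 dose of CCl4, enzymes around the squalene part of the pathway were higher than in healthy HSCs, and Dhcr7, at the end of it, was lower. Calls here and below are at an adjusted p under 0.05 by edgeR's quasi-likelihood test over all 18758 genes, and fold changes are log2 values with their standard error (SE). Of the 18 synthesis enzymes 7 rose, 1 fell and 10 did not pass, with a median log2 fold change of 0.76 where the median of all genes was -0.12. Among all 28 members 9 were higher and 3 lower, beside 15.5% of all genes tested that were called higher and 18.1% called lower.

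Squalene epoxidase (Sqle, GRCm38 chromosome 15, 59315077 to 59331192), an oxygen-dependent and rate-limiting step, was at 10.6, 7.51, 6.49 and 27.5 CPM in the 4 healthy libraries. At acute 24 h it was at 34.2, 30.03 and 42.3 CPM, above every healthy library. The difference was 1.45 (SE 0.44, adjusted p 0.013), and it missed the threshold without acute replicate 3. Lanosterol synthase (Lss, chromosome 10, 76531588 to 76557138), which closes the rings, went from 8.32 to 13.6 CPM in healthy HSCs to 30.5, 33.3 and 33.0 CPM, a tight group with no overlap (1.59, SE 0.28, adjusted p 0.00013). Cyp51 (chromosome 5, 4081145 to 4104746), the lanosterol demethylase, was at 34.01, 30.6 and 40.7 CPM against 6.74 to 26.4 CPM (1.41, SE 0.42, adjusted p 0.0115). Hsd17b7, a sterol ketoreductase, was at 30.5, 28.7 and 37.1 CPM, again above all healthy libraries at 6.74 to 13.6 CPM (1.52, SE 0.33, adjusted p 0.00106). Their partners in demethylation, Msmo1 (1.09, SE 0.39, adjusted p 0.035) and Nsdhl (0.91, SE 0.21, adjusted p 0.00162), rose as well. The Msmo1 libraries overlapped, at 43.5, 56.7 and 96.8 CPM against 17.95 to 54.9 CPM, and its call was lost on leaving out any 1 of healthy replicates 1, 2 and 3 and acute replicates 2 and 3 (range over single libraries left out 0.70 to 1.53).

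In the early steps, Mvd, the mevalonate diphosphate decarboxylase, was the only enzyme of 7 called. It was at 14.0, 16.2 and 17.4 CPM at acute 24 h and at 6.24 to 8.76 CPM in healthy HSCs (1.07, SE 0.30, adjusted p 0.00776). Hmgcs1, which makes HMG-CoA, was at 54.7, 63.0 and 89.5 CPM against 34.9 to 86.1 CPM, a difference of 0.37 with a 95% interval of -0.38 to 1.12. Pmvk (0.71, adjusted p 0.0526) and Mvk (0.63, adjusted p 0.0893) missed the threshold, and Mvk was above every healthy library. Pmvk passed with the replicate block (0.84, adjusted p 0.0208) and with library size alone (0.71, adjusted p 0.0431).

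Dhcr7, which reduces 7-dehydrocholesterol to cholesterol, went the other way. It was at 23.0, 24.2, 26.0 and 34.3 CPM in healthy HSCs and at 6.59, 13.7 and 12.5 CPM at acute 24 h. All 3 libraries lay below all healthy ones, and the difference was -1.30 (SE 0.28, adjusted p 0.000856). Its neighbors Ebp (-0.62, adjusted p 0.103) and Sc5d (-0.79, adjusted p 0.104) were not called.

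**Figure D1:**
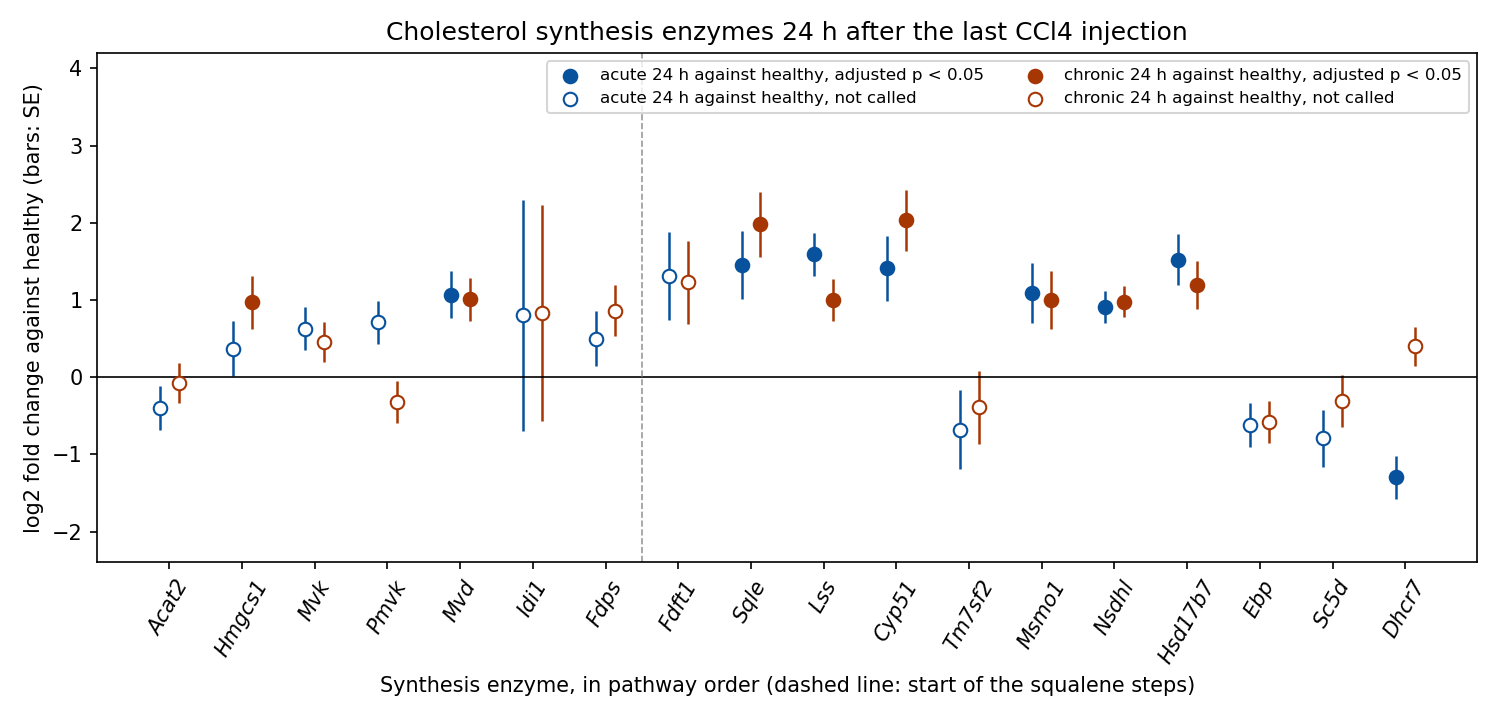
Log2 fold change against healthy HSCs (vertical axis, bars are SE) of the 18 synthesis enzymes in pathway order, at acute 24 h (blue, n = 3) and chronic 24 h (brown, n = 4), with filled points called at adjusted p under 0.05. Sqle, Lss, Cyp51, Msmo1, Nsdhl and Hsd17b7 were filled, that is called, in both groups, while Dhcr7 was at -1.30 in acute and 0.40 in chronic injury.

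Healthy replicate 4 stood apart in this comparison. It was the highest healthy library for 12 of the 18 enzymes, with a summed enzyme level of 569.4 CPM against 259.0, 282.9 and 330.9 CPM in the others, and it was also the library with the highest hepatocyte marker sum of its group. The part of hepatocyte RNA in its levels was not tested. When it was left out together with chronic 14 d replicate 2, an alternative chosen after the data were seen, 17 members in place of 12 were called at acute 24 h: Sqle moved to 2.11 and Cyp51 to 2.0, Fdft1 was then called at 1.86 (adjusted p 0.0118), and Dhcr7 stayed lower at -1.16 (adjusted p 0.00205). In the acute 24 h libraries the hepatocyte sum was at most 369 CPM, and the enzyme sum was 418.9, 474.5 and 592.4 CPM. The 2 sums are of different genes and their sizes cannot be set against each other. The part of hepatocyte RNA in the acute 24 h enzyme levels was not tested.

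**Figure D2:**
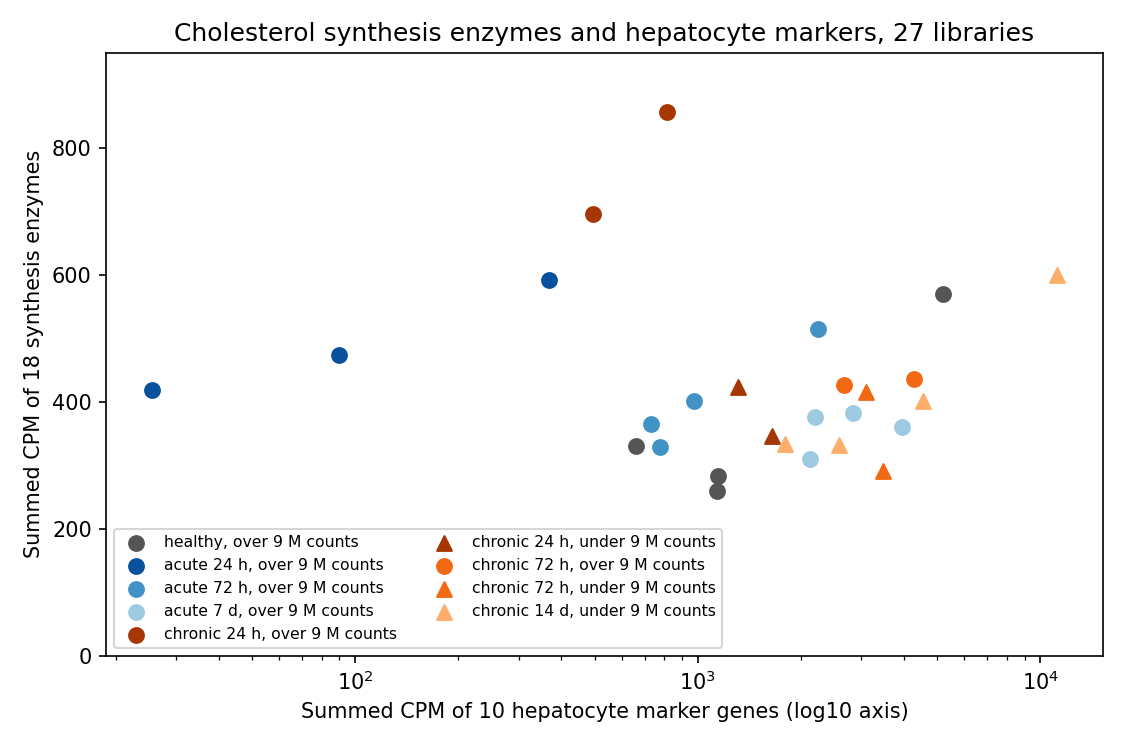
Summed CPM of the 18 synthesis enzymes (vertical axis) against summed CPM of 10 hepatocyte markers (horizontal log10 axis), each point 1 of 27 libraries, colored by group, circles above and triangles below 9 M counts. The acute 24 h libraries have the lowest hepatocyte sums and enzyme sums of 418.9 to 592.4 CPM, and healthy replicate 4 and chronic 14 d replicate 2 stand at the right with 569.4 and 599.5 CPM.

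After the repeated course, enzymes of the squalene part were again higher at 24 h, in a comparison that shares its healthy libraries with the acute one. Of the 18 enzymes 8 rose and none fell (median 0.92, all genes -0.03): Hmgcs1, Mvd, Sqle, Lss, Cyp51, Msmo1, Nsdhl and Hsd17b7. Among the 28 members 11 were higher and 1 lower, beside 17.1% of all genes called higher and 14.0% called lower. Cyp51 was at 21.4, 32.1, 72.4 and 88.2 CPM in replicates 1 to 4 (2.03, SE 0.40, adjusted p 0.00049), and Sqle at 25.6, 28.8, 68.8 and 81.3 CPM (1.98, SE 0.42, adjusted p 0.000926). The Hmgcs1 (0.97, SE 0.34, adjusted p 0.0329) and Msmo1 (1.00, SE 0.37, adjusted p 0.0425) calls were lost on leaving out any 1 of healthy replicates 1, 2 and 3 and chronic replicates 3 and 4. Mvd was even across the group, at 15.0, 14.8, 12.1 and 19.0 CPM (1.01, SE 0.28, adjusted p 0.00865). Dhcr7 was at 32.8, 33.9, 33.9 and 41.5 CPM, not below healthy HSCs (0.40, adjusted p 0.227).

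The chronic 24 h libraries differed among themselves by depth class. The enzyme sum was 345.5 and 423.8 CPM in replicates 1 and 2, of lower depth, and 696.5 and 856.7 CPM in replicates 3 and 4, of higher depth. For 11 of the 18 enzymes both higher-depth libraries exceeded both lower-depth ones, and for none the reverse held. Hsd17b7 was at 10.0 and 15.8 CPM in the lower-depth pair and 35.6 and 40.1 CPM in the higher-depth pair. With the lower-depth pair only, an alternative chosen after the data were seen, 4 members were called in place of 12: Mvd (1.00, adjusted p 0.0422) and Nsdhl (0.72, adjusted p 0.0255) among the enzymes, and Ch25h and Soat1. Sqle was then at 1.08 (adjusted p 0.0885), Cyp51 at 1.04 (adjusted p 0.0711) and Hsd17b7 at 0.23 (adjusted p 0.621). With libraries of higher depth only, Sqle was at 2.53 (adjusted p 0.000289) and Cyp51 at 2.62 (adjusted p 0.000161). Macrophage markers moved with the same split, at 2305 and 3321 CPM in replicates 1 and 2 and 476 and 1046 CPM in replicates 3 and 4. Hepatocyte markers did so too, at 1649 and 1308 against 495 and 815 CPM. Sinusoidal endothelial markers were at 233 and 252 against 86.6 and 192 CPM. The smaller sums of neutrophil, lymphocyte and cholangiocyte markers were likewise higher in replicates 1 and 2. The part of these cells in the enzyme levels was not tested.

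**Figure D3:**
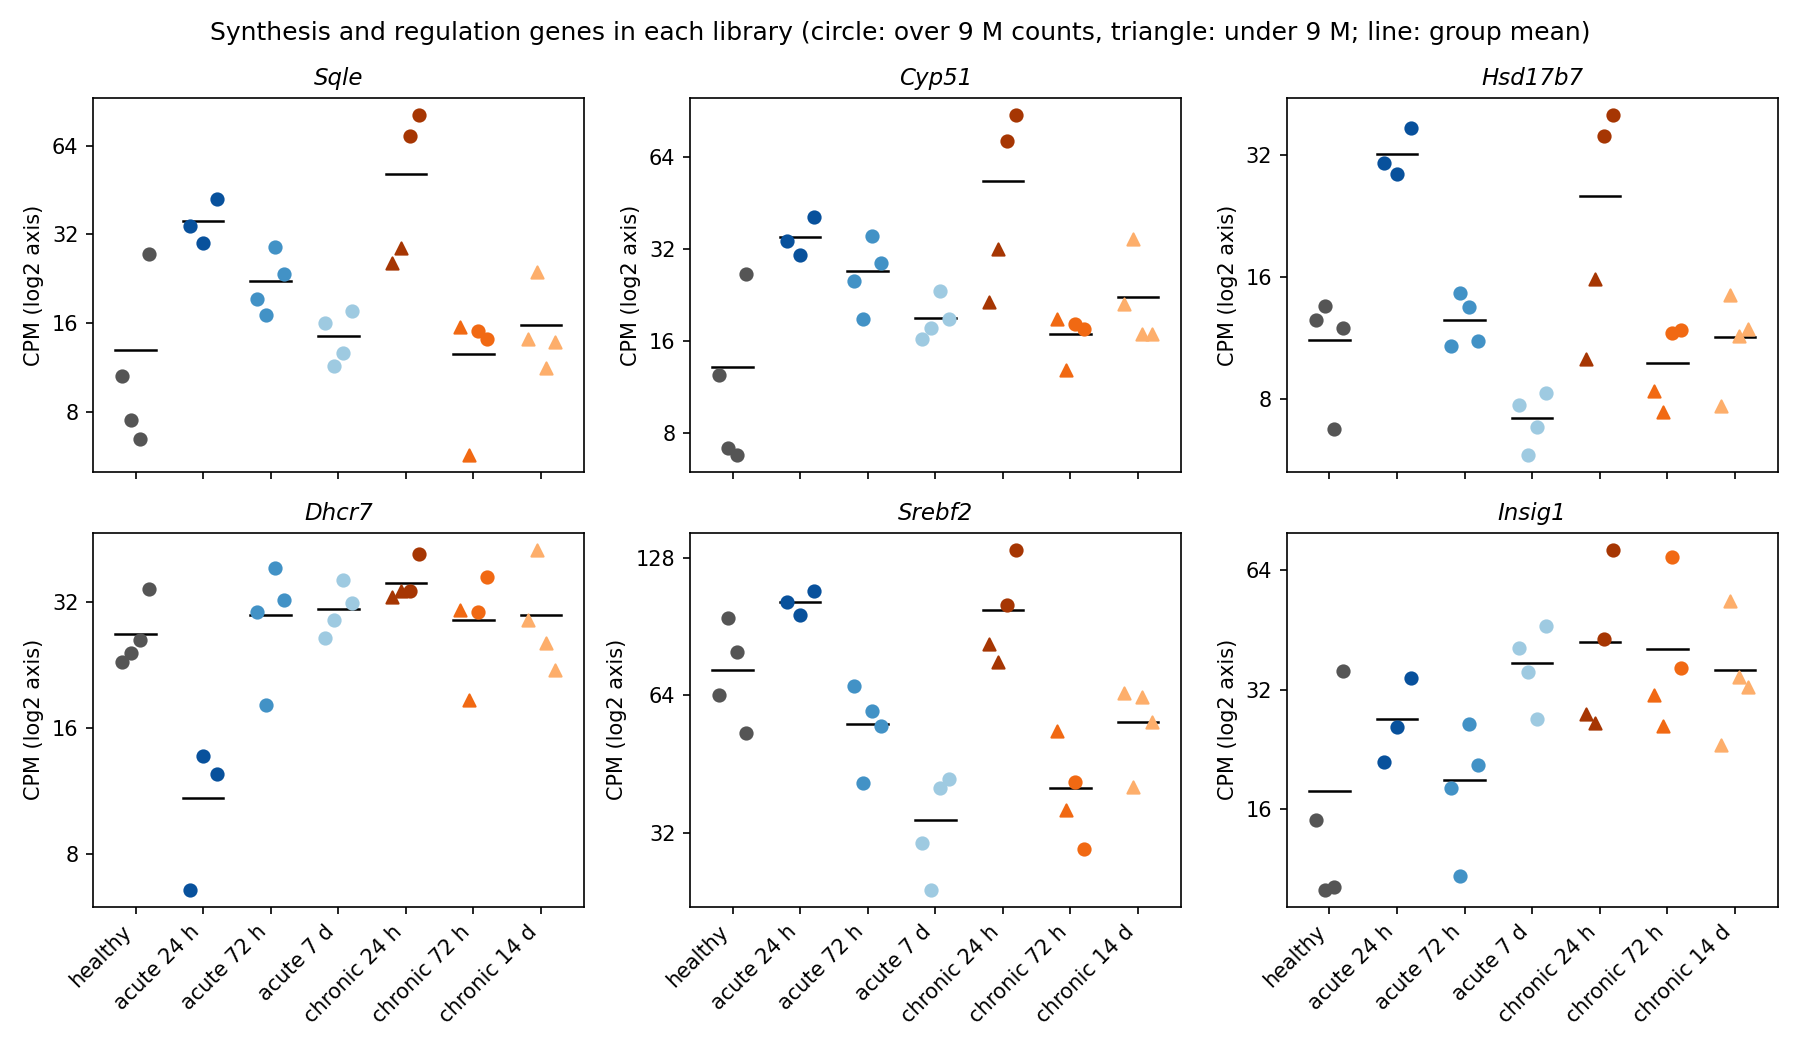
CPM on a log2 axis in each library for Sqle, Cyp51, Hsd17b7, Dhcr7, Srebf2 and Insig1, by group, with circles above and triangles below 9 M counts and a line at the group mean. In chronic 24 h the 2 circles lie above the 2 triangles for each of the 6 genes, and Dhcr7 at acute 24 h (6.59 to 13.7 CPM) lies below all other libraries.

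Chronic and acute HSCs at 24 h were compared to ask whether the response after repeated injury differed from that after 1 dose. Among the enzymes, Dhcr7 was higher in chronic HSCs (1.70, SE 0.28, adjusted p 0.000131) and Pmvk lower (-1.03, SE 0.28, adjusted p 0.0105), and the other 16 were not called. Of the 28 members 4 were higher and 1 lower, beside 14.0% and 7.32% of all genes. For Sqle the difference was 0.53 with a 95% interval of -0.38 to 1.44, for Cyp51 0.61 (-0.26 to 1.49) and for Mvd -0.06 (-0.68 to 0.56), and for Sqle and Cyp51 these intervals include differences above 1. Pmvk was at 18.9, 22.8 and 16.9 CPM in acute and 7.495, 9.88, 8.95 and 11.8 CPM in chronic HSCs, without overlap, but it missed the threshold with higher-depth libraries only (-0.95, adjusted p 0.0861) and without acute replicate 2.

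By 72 h the synthesis enzymes were near healthy levels in both courses. At acute 72 h, Nsdhl was the only enzyme called higher (0.57, SE 0.20, adjusted p 0.0413), a call lost on leaving out any 1 of 6 of the 8 libraries, and the median of the 18 was 0.20. Members called were 2 higher and 1 lower, beside 13.1% and 8.81% of all genes. Cyp51 remained at 18.9 to 35.3 CPM, with a fold change of 1.04 (adjusted p 0.0629) that missed the threshold narrowly. It passed with DESeq2 (0.99, adjusted p 0.0493), with the depth term (1.04, adjusted p 0.0401), with higher-depth libraries only (1.02, adjusted p 0.0415), with the replicate block (1.11, adjusted p 0.0427), with library size alone (1.16, adjusted p 0.0334) and without healthy replicate 4. Sqle passed without that replicate as well. At chronic 72 h no enzyme was called (median 0.06), although Nsdhl passed with the depth term (0.67, adjusted p 0.0134), with higher-depth libraries only (0.71, adjusted p 0.0197) and with library size alone (0.56, adjusted p 0.0342), and Acat2 with DESeq2 (0.70, adjusted p 0.0482) and library size alone (0.83, adjusted p 0.022). In that group members called were 4 higher and 2 lower, beside 11% called higher and 9.0% called lower. At acute 7 d no enzyme was called (median 0.03), with 3 members higher and 1 lower, beside 13.1% and 10.6%. At chronic 14 d none was called either (median 0.16), with 2 members higher and none lower, beside 5.12% and 3.49%. In this last group replicate 2 was the highest library for 16 of 18 enzymes, at a summed 599.5 CPM against 332.2 to 402.2 CPM in the other 3, and had the highest hepatocyte marker sum of all 27 libraries.

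The fall from the 24 h level was tested directly. From acute 24 h to 7 d, 8 of the 18 enzymes fell, led by Hsd17b7 (-2.16, SE 0.34, adjusted p 2.65e-05), which reached 5.82 to 8.28 CPM, and Lss (-1.63, SE 0.28, adjusted p 8.13e-05). Dhcr7 (1.49, SE 0.28, adjusted p 0.000193) and Acat2 (0.80, SE 0.29, adjusted p 0.0296) rose. Of the 28 members 4 were higher and 11 lower, beside 22.6% and 17.4% of all genes. The count of members called dropped from 15 to 8 without acute 24 h replicate 3 and to 9 without acute 7 d replicate 2.

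From chronic 24 h to 14 d, 7 enzymes fell and none was called higher. Those that fell included Sqle (-1.70, SE 0.42, adjusted p 0.00493), Cyp51 (-1.27, SE 0.40, adjusted p 0.023) and Nsdhl (-0.81, SE 0.20, adjusted p 0.00489). Members called were 1 higher and 10 lower, beside 10.1% and 12.9%. This comparison sets 2 higher-depth and 2 lower-depth libraries against 4 of lower depth, and with depth class as a term in the fit 4 members were called in place of 11, and none of the 7 enzyme falls passed. Their adjusted p in that fit ran from 0.0523 for Mvd (-0.92) to 0.313 for Cyp51 (-0.66), with Sqle at -1.06 (adjusted p 0.0923) and Hsd17b7 at -0.45 (adjusted p 0.277). The 4 called were Ch25h and Soat1, lower, and Insig2 and Sc5d, higher. Sc5d, the lathosterol oxidase, was not called without that term (0.81), but it was called higher with it (1.32, adjusted p 0.0125), with library size alone (0.97, adjusted p 0.0342), with the replicate block (0.96, adjusted p 0.0267) and with DESeq2 (0.88, adjusted p 0.0399). Without chronic 24 h replicate 4 the count was 6.

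The step from 24 h to 72 h was added after the values had been seen. In the acute course 3 enzymes fell (Lss, Msmo1 and Hsd17b7, at -1.03, -1.44 and -1.36) and Dhcr7 rose by 1.45 (adjusted p 0.000525), with 3 members higher and 6 lower, beside 14.6% and 8.47%. In the chronic course 5 fell, Sqle the most (-2.02, SE 0.42, adjusted p 0.002), and Acat2 rose (0.78, adjusted p 0.0449, lost on leaving out any 1 of 7 of the 8 libraries), with 3 members higher and 7 lower, beside 7.55% and 8.04%. Without chronic 24 h replicate 3 the last count was 6 in all. The difference between both steps, tested as an interaction, was called for Dhcr7 (-1.74, SE 0.37, adjusted p 0.00327) and Insig2 (0.87, SE 0.24, adjusted p 0.019), 1 member lower and 1 higher beside 7.64% and 3.20% of all genes. For Sqle it was -1.34 (95% interval -2.59 to -0.09, adjusted p 0.168) and for Cyp51 -1.29 (-2.49 to -0.09, adjusted p 0.164).

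**Figure D4:**
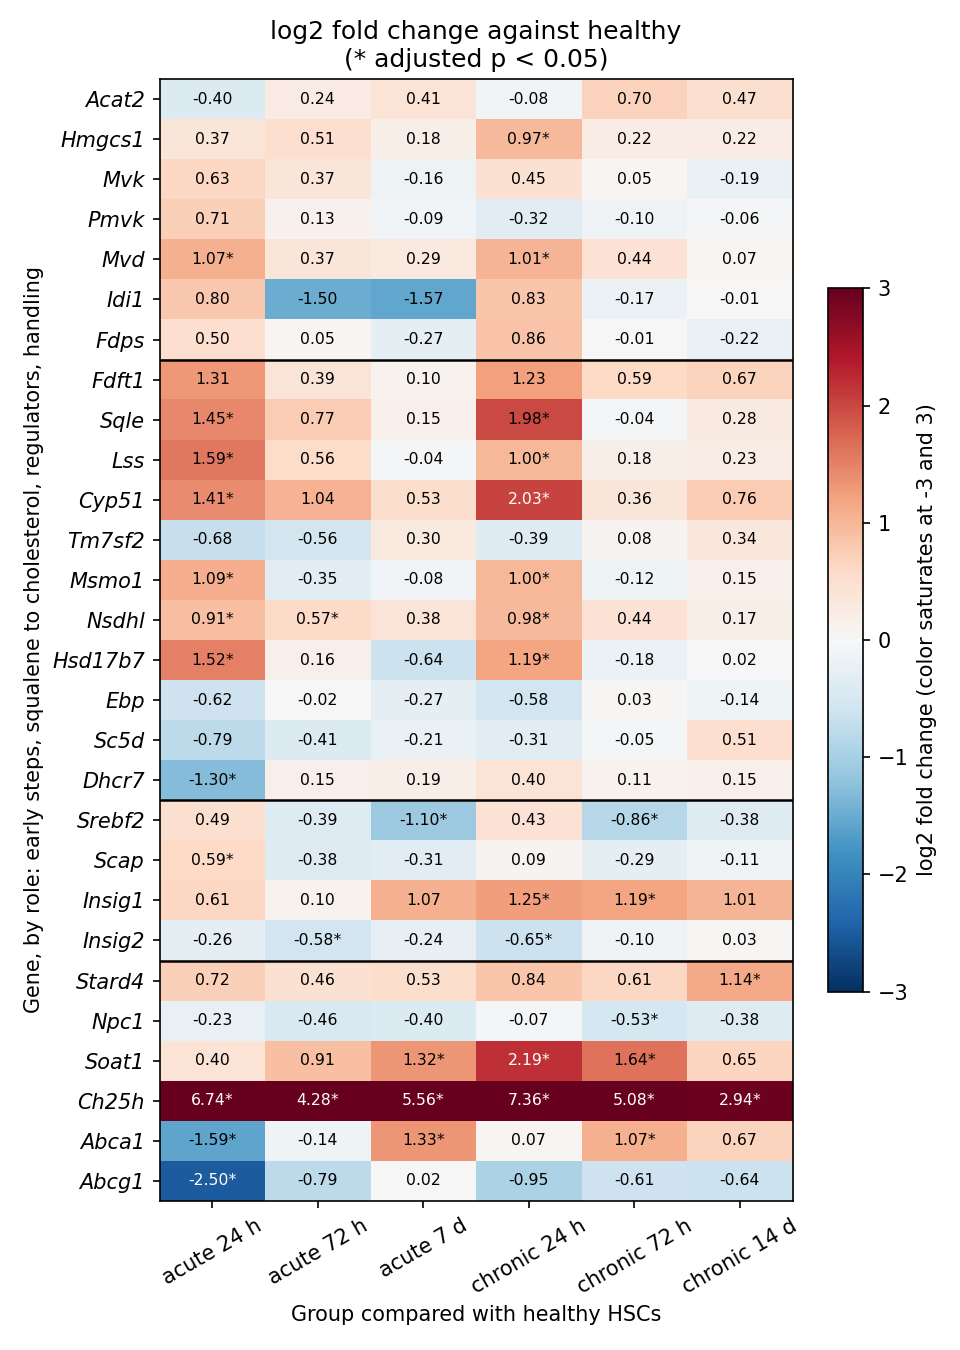
Log2 fold change against healthy HSCs for the 28 members (rows, by role) in the 6 injured groups (columns), with an asterisk at adjusted p under 0.05. Asterisks in the rows of Sqle, Lss, Cyp51, Msmo1, Nsdhl and Hsd17b7 stand in both 24 h columns and, for Nsdhl, at acute 72 h (0.57), and Ch25h is called in all 6 columns, from 2.94 to 7.36.

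Among the regulators, Srebf2 itself was not called at 24 h and was lower later. It was at 64.1, 94.6, 79.7 and 53.0 CPM in healthy HSCs and at 103, 96.2 and 109 CPM at acute 24 h, just above the healthy range (0.49, adjusted p 0.125). At acute 7 d it was at 30.3, 23.95, 40.01 and 42 CPM, below every healthy library (-1.10, SE 0.23, adjusted p 0.00121). From acute 24 h to 7 d it fell by 1.59 (adjusted p 2.13e-05). At chronic 72 h it was at 53.6, 35.9, 41.3 and 29.5 CPM (-0.86, SE 0.23, adjusted p 0.009), overlapping healthy replicate 4 with its highest library. The fall from chronic 24 h to 72 h was -1.30 (SE 0.23, adjusted p 0.000413).

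Scap, the escort of that factor, was at 121, 105 and 100 CPM at acute 24 h and 61.1 to 90.0 CPM in healthy HSCs (0.59, SE 0.19, adjusted p 0.0168). This call was lost without healthy replicate 1 or acute replicate 1. Scap fell from acute 24 h to 72 h (-0.96, adjusted p 0.000536), and in no other injured group did it differ from healthy HSCs by the test. Its exons overlap a transcript on the opposite strand over 13.2% of their length, and the strand setting of the counting is not given in the sources used here.

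The retention genes moved apart. Insig1, itself a target of Srebf2, was at 15.1, 10.0, 10.2 and 35.8 CPM in healthy HSCs and at 27.9, 26.4, 42.9 and 72.2 CPM at chronic 24 h (1.25, SE 0.41, adjusted p 0.0213). At chronic 72 h it was at 31.1, 26.0, 69.1 and 36.3 CPM (1.19, SE 0.41, adjusted p 0.0399), a call lost without the filter (adjusted p 0.0681) and with only the 2 groups compared (adjusted p 0.12). The chronic 24 h call was lost with only the 2 groups compared (adjusted p 0.0989) and with the lower-depth pair only (0.63, adjusted p 0.374). Healthy replicate 4 overlapped these groups, and both calls were lost on leaving out any 1 of the other 3 healthy libraries, or chronic replicate 4 of the group. With healthy replicate 4 and chronic 14 d replicate 2 left out, Insig1 was called also at acute 24 h (1.2, adjusted p 0.0218), acute 7 d (1.67, adjusted p 0.00253) and chronic 14 d (1.35, adjusted p 0.0348). At acute 7 d it passed as well with DESeq2 (1.08, adjusted p 0.0343) and the depth term (1.07, adjusted p 0.0305). The replicate block (1.19, adjusted p 0.0227) and library size alone (1.19, adjusted p 0.0335) gave that call too. At chronic 14 d it passed with the depth term (2.0, adjusted p 0.0245).

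Insig2, the isoform less tied to sterol level, was at 70.9, 63.3, 67.7 and 121 CPM in healthy HSCs. At chronic 24 h all 4 libraries were lower, at 59.2, 48.3, 46.7 and 51.0 CPM (-0.65, SE 0.16, adjusted p 0.0036). Without healthy replicate 4 and chronic 14 d replicate 2 the value was -0.39 (adjusted p 0.0113), and the call was lost with only the 2 groups compared (adjusted p 0.0668) and with the lower-depth pair only (-0.56, adjusted p 0.0693). At acute 72 h they were at 48.5 to 59.3 CPM (-0.58, SE 0.16, adjusted p 0.0125), a call lost without healthy replicate 4. From chronic 24 h it rose by 0.56 at 72 h (adjusted p 0.0213) and by 0.69 at 14 d (adjusted p 0.00384). Per kilobase of exon it was the highest of the 28 members in healthy HSCs, at 23.2 ± 7.77 CPM per kb (SD, n = 4), followed by Ebp at 20.4 ± 5.60 and the exporter Abcg1 at 13.2 ± 3.54. The first 2 did not differ beyond their spread. Lss was the lowest at 0.994 ± 0.219 CPM per kb, and Ch25h was near it at 1.36 ± 0.382. The length used was that of all annotated exons of a gene together, 10787 bases for Lss and 1387 for Ch25h. In CPM, without the division by length, the healthy mean was 10.7 for Lss and 1.89 for Ch25h.

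Ch25h, cholesterol 25-hydroxylase, was the largest change among the members and the only one called in all 6 comparisons with healthy HSCs. In the 4 healthy libraries it was at 2.54, 1.76, 1.26 and 1.99 CPM, 15 counts at the least. At acute 24 h it was at 211, 161 and 236 CPM, and at chronic 24 h at 233, 414, 403 and 199.8 CPM. The fold changes were 107 (log2 6.74, SE 0.47, adjusted p 7.92e-10) and 165 (log2 7.36, SE 0.47, adjusted p 1.11e-10), and both 24 h groups overlapped each other (0.62, 95% interval -0.16 to 1.41). At chronic 24 h it was 7.32 with higher-depth libraries only and 7.44 with the lower-depth chronic pair only.

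The course of Ch25h over time was not a steady decline after 1 dose. It was at 16.9, 50.4, 43.1 and 37.2 CPM at acute 72 h (4.28, SE 0.42, adjusted p 2.41e-07) and at 82.2, 71.5, 135 and 69.1 CPM at acute 7 d (5.56, SE 0.44, adjusted p 1.55e-08), with no overlap between these 2 groups, a difference whose test was not among the comparisons. In the chronic course it was at 42, 47.3, 45.4 and 121 CPM at 72 h (5.08, SE 0.43, adjusted p 3.39e-08) and at 11.9, 20.4, 13.6 and 12.2 CPM at 14 d (2.94, SE 0.40, adjusted p 6.84e-05). The fall from chronic 24 h to 14 d was -4.43 (SE 0.40, adjusted p 8.85e-08), yet every 14 d library stayed above every healthy one. Macrophages are known to express this gene, and their markers summed highest at acute 7 d, a sum that was mostly Lyz2. The part of macrophages in the Ch25h level there was not tested. At acute 24 h those markers summed to 123 to 175 CPM, against 135 to 589 CPM in healthy HSCs, and the part of macrophages there was not tested either.

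Soat1, which esterifies cholesterol for storage, was at 14.5, 15.3, 20.4 and 27.6 CPM in healthy HSCs and at 63.7, 70.0, 107 and 114 CPM at chronic 24 h, with no overlap (2.19, SE 0.39, adjusted p 0.000154). It was lower at acute 24 h than at chronic 24 h (20.7, 27.2 and 29.0 CPM, chronic minus acute 1.79, SE 0.43, adjusted p 0.0039), and the acute level did not differ from healthy by the test (0.40, 95% interval -0.44 to 1.24). It stayed higher at chronic 72 h (1.64, SE 0.39, adjusted p 0.00364) and was not called at 14 d (0.65, adjusted p 0.32). At acute 72 h Soat1 was at 32.1 to 41.7 CPM, with every library above every healthy one. It was not called there, but it passed with only the 2 groups compared (0.9, adjusted p 0.0271). At acute 7 d it was at 49.4, 78.6, 8.69 and 57.9 CPM, with replicate 3 below every healthy library (1.32, SE 0.38, adjusted p 0.014). That call was lost without replicate 2 and with only the 2 groups compared (1.33, adjusted p 0.127).

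The exporters Abca1 and Abcg1 were lowest at acute 24 h. Abca1 (chromosome 4, 53030787 to 53159895) was at 32.9, 31.0, 38.2 and 26.4 CPM in healthy HSCs and at 11.8, 10.9 and 9.31 CPM at acute 24 h (-1.59, SE 0.28, adjusted p 0.000102). Abcg1 (chromosome 17, 31057675 to 31117988) went from 71.4, 104, 130 and 81.4 CPM to 8.55, 18.8 and 23.7 CPM (-2.50, SE 0.45, adjusted p 0.000157). For both genes the groups did not overlap. Abca1 then exceeded healthy HSCs, at 91.1, 107, 63.7 and 62.0 CPM at acute 7 d (1.33, SE 0.24, adjusted p 0.000346) and at 52.1, 61.6, 86.1 and 70.3 CPM at chronic 72 h (1.07, SE 0.24, adjusted p 0.00284). Macrophage marker sums were also higher in these groups, at 3985 to 10334 CPM and 933 to 2547 CPM against 135 to 589 CPM in healthy HSCs. Lyz2 was the largest part of the sum in both injured groups. The part of macrophages in the Abca1 level was not tested. Abcg1 returned to the healthy range, at 74.2 to 123 CPM at acute 7 d (0.02, 95% interval -0.76 to 0.81).

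At chronic 24 h the exporters split by depth class, in the direction opposite to the enzymes. Their higher levels were in the pair with higher marker sums of macrophages and of the other non-stellate cells. The part of these cells in the exporter levels was not tested. Abcg1 was at 84.1 and 72.3 CPM in the lower-depth pair and at 16.1 and 27.6 CPM in the higher-depth pair. The group was not called (-0.95, SE 0.39, adjusted p 0.0635), but with higher-depth libraries only Abcg1 was lower by -2.12 (adjusted p 0.00152). Abca1 was at 45.3 and 43.2 against 20.6 and 25.9 CPM, with a group value of 0.07 (95% interval -0.43 to 0.57). Both were higher in chronic than in acute 24 h HSCs (Abca1 1.66, SE 0.28, adjusted p 0.000143, and Abcg1 1.55, SE 0.44, adjusted p 0.0126). With higher-depth libraries only, the Abcg1 difference was 0.34 (adjusted p 0.617), and it also missed the threshold without acute replicate 1 or chronic replicate 1.

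**Figure D5:**
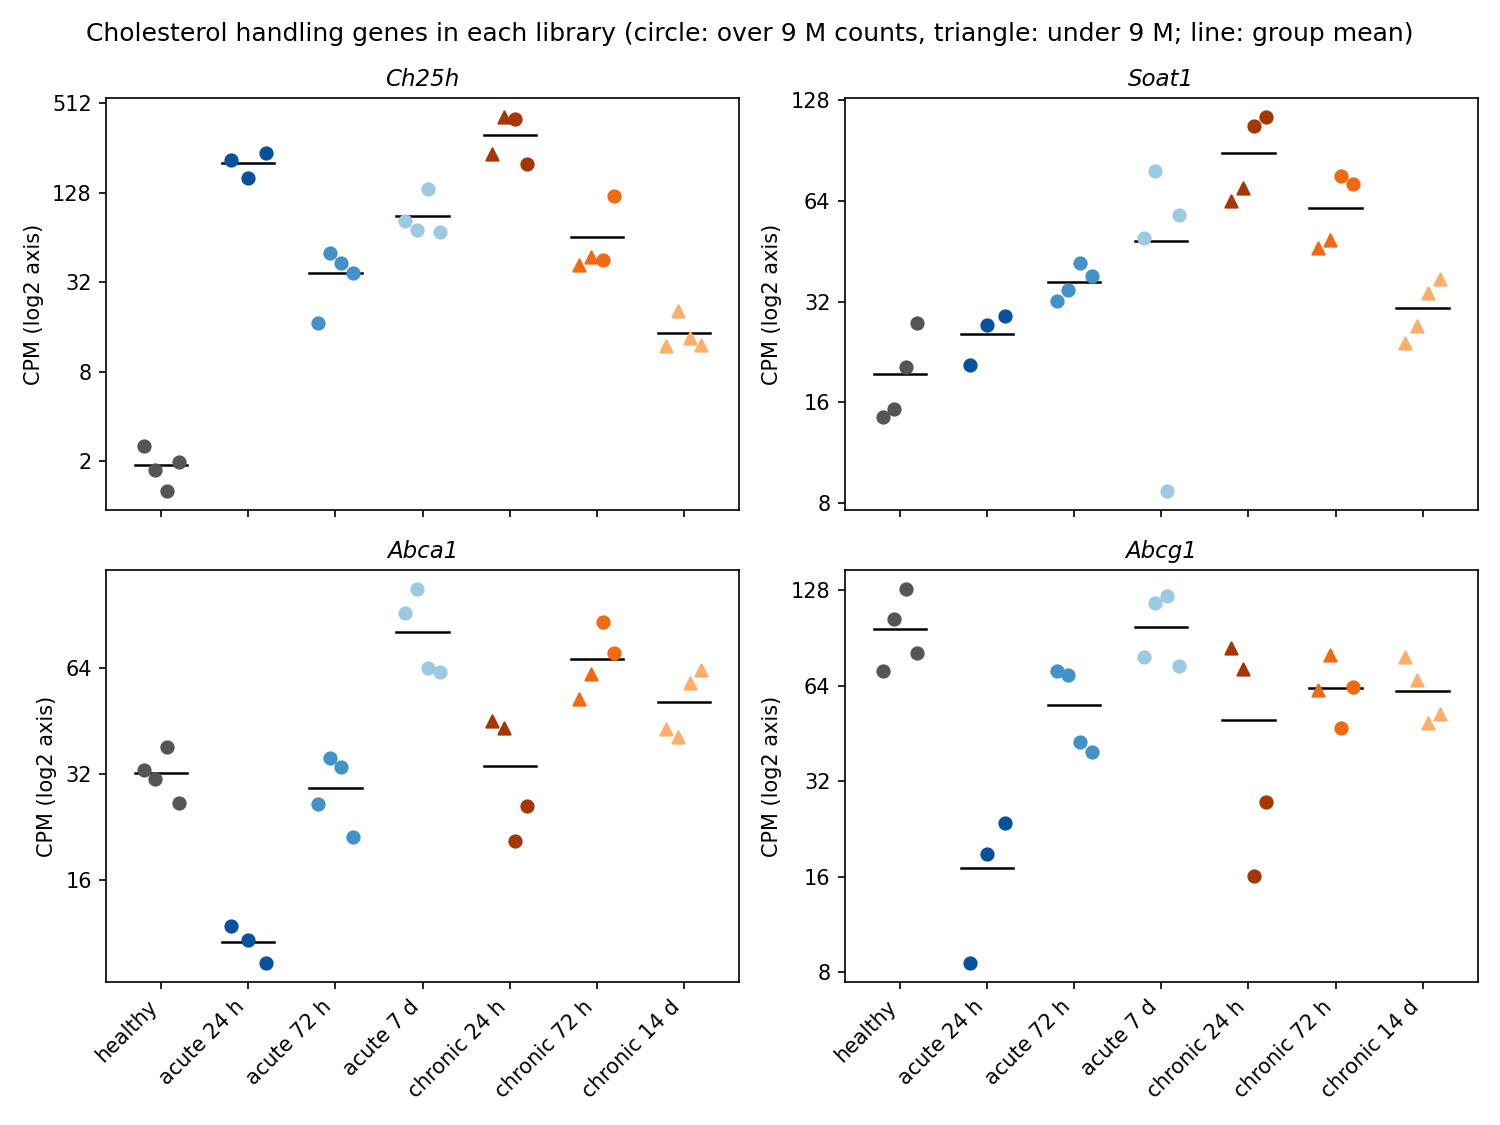
CPM on a log2 axis in each library for Ch25h, Soat1, Abca1 and Abcg1, by group, with circles above and triangles below 9 M counts and a line at the group mean. Ch25h is above the healthy libraries in every injured library, Abca1 and Abcg1 are lowest at acute 24 h, and at chronic 24 h the 2 triangles of both exporters lie above the 2 circles.

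The other handling genes were seldom called. Stard4, a cytosolic sterol carrier, was called higher against healthy HSCs only at chronic 14 d (8.24, 24.2, 13.4 and 10.1 CPM against 4.10 to 9.97 CPM, 1.14, SE 0.36, adjusted p 0.0472), and lost that call on leaving out any 1 of 5 of the 8 libraries. At chronic 24 h it was at 0.84 (adjusted p 0.0751), and it passed there with the depth term (1.08, adjusted p 0.0233) and with higher-depth libraries only (1.37, adjusted p 0.00521). Npc1, the lysosomal cholesterol exporter, was called lower at chronic 72 h (-0.53, SE 0.19, adjusted p 0.0477), where the lower-depth pair was at 8.67 and 8.14 CPM and the higher-depth pair at 13.9 and 12.6 CPM, and with higher-depth libraries only the value was -0.21 (adjusted p 0.412).

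Of the 28 members 5 were called in no comparison with the fit used throughout: Idi1, Fdft1, Tm7sf2, Ebp and Sc5d, of which Fdft1 and Sc5d passed under alternatives given above. Tm7sf2 passed from acute 24 h to 7 d with higher-depth libraries only (0.98, adjusted p 0.0353). Idi1, the isoprenoid isomerase, was erratic, at 0 counts in 4 libraries of 4 different groups and at 65.6 CPM in chronic 24 h replicate 4. Fdft1 exons overlap those of Ctsb, an abundant gene on the opposite strand, over 18.3% of their length. Its level at 24 h was 12.2, 19.0 and 13.7 CPM in acute HSCs against 3.45 to 11.8 CPM in healthy ones (1.31, SE 0.57, adjusted p 0.0808). Fdps, called with the main fit only from chronic 24 h to 14 d (-1.08, adjusted p 0.0229), passed elsewhere under alternatives. At chronic 24 h it was higher with DESeq2 (0.83, adjusted p 0.0495), the depth term (1.1, adjusted p 0.0188) and higher depth only (1.22, adjusted p 0.0117). Library size alone gave 0.87 there (adjusted p 0.0429). From acute 24 h to 7 d it was lower with higher depth only (-0.78, adjusted p 0.0473). Fdps overlaps Gm43738 on the same strand over 26.7% of its exon bases, so reads of the overlap could be assigned to either.

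A further list of 28 genes around the pathway, all tested, was used for context. At acute 24 h none rose and 3 fell: Mylip, an inducible degrader of lipoprotein receptors (-2.34, SE 0.22, adjusted p 6.38e-08), Cyp27a1, the sterol 27-hydroxylase (-2.18, SE 0.23, adjusted p 2.52e-07), and Mbtps1, the site-1 protease of the Srebf2 product (-0.86, adjusted p 0.0043). At chronic 24 h 5 rose and 5 fell, among them Cyp27a1 (-2.0, SE 0.20, adjusted p 1.23e-07) and Nceh1, a cholesteryl ester hydrolase (2.60, SE 0.54, adjusted p 0.000769). Nceh1 was at 44.8 and 51.8 CPM in the lower-depth pair and 4.74 and 14.6 CPM in the other. Marker sums of macrophages and of the other non-stellate cells were higher in the lower-depth pair, and the part of these cells in the Nceh1 level was not tested. Cyp27a1 was at 79.4 to 108 CPM in healthy HSCs and 17.4, 23.0 and 20.5 CPM at acute 24 h, and was no longer among those called at acute 7 d. The counts for this list were 1 higher and 6 lower at acute 72 h, 5 and 4 at acute 7 d, 4 and 3 at chronic 72 h, and 2 and 3 at chronic 14 d, to be read beside the shares of all genes given above for each comparison.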

How the data were processed

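Sorted mouse HSC libraries (single-end reads of 75 bp) had been aligned by the authors with STAR to GRCm38.p6 and quantified with StringTie, and raw counts per gene for 27 libraries were deposited. Tool versions and the strand setting are not given in the sources used here. Of 53379 genes, 53274 IDs matched GENCODE M21, which gave names, positions and exon lengths. All columns were matched to a library by name.

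Genes were filtered with filterByExpr by group (18758 tested) and scaled by TMM. The 7 groups were fitted in 1 edgeR quasi-likelihood model (edgeR 4.0.16, limma 3.58.1, R 4.3.3), with Benjamini-Hochberg adjustment over all genes tested, a call at adjusted p under 0.05 and no fold minimum. The SE is the log2 fold change divided by the square root of its F statistic, and CPM uses TMM-scaled library sizes. Tables and figures used Python 3.11.15, pandas 2.3.3 and matplotlib 3.10.9. Depth of 6.3 to 13.1 M counts limits the precision of genes near 10 CPM.

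The members, the other lists and the tests were chosen with earlier results of these data known. All 28 members could be named, and of the further pathway list up to 2 genes called highest and 2 called lowest by fold in each comparison. Mbtps1 was named outside that rule after its values were seen, and 1 gene of that list is not reported here. The steps from 24 h to 72 h and their difference, the lower-depth chronic 24 h pair, and the omission of healthy replicate 4 with chronic 14 d replicate 2 were also added after seeing the data. Alternatives were DESeq2 1.42.0, its size factors in edgeR, library size alone, no filter, a 2-fold minimum, only the groups compared, the replicate block, depth class (9 M counts) as a term, higher depth only, and leaving out each library. On simulated data, 147 and 132 of 200 genes with a log2 fold change of 2 were recovered for acute and chronic 24 h against healthy (18193 and 18210 genes), with 8 and 5 false calls. Only those 200 genes were changed, and no effect of depth class or cell composition was simulated. The simulation therefore gives no error rate for the libraries here.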

Additional observations from a re-analysis of the deposited data

Results flagged for a closer look

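In 11 of 168 combinations of a member and a group, 1 library lay far from the others of its group by Dixon's criterion, and chance alone gives about 1 in 20. Healthy replicate 4 was such a library for 3 genes, with Fdps at 32.41 CPM (others 13.99 to 15.77), Sc5d at 86.13 CPM (34.55 to 40.79) and Insig2 at 120.9 CPM (63.28 to 70.89). Chronic 14 d replicate 2 was one for Fdft1 at 19.47 CPM (4.811 to 7.052) and Msmo1 at 53.16 CPM (27.18 to 28.63). Both libraries had the highest hepatocyte marker sum of their group, and its part in these values was not tested.

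Chronic 72 h replicate 2, of lower depth, was low for Fdps at 12.86 CPM (20.53 to 21.47) and Sqle at 5.715 CPM (14.18 to 15.6). Chronic 72 h replicate 4 held Ch25h at 121.0 CPM (42 to 47.29), and chronic 24 h replicate 4 held Dhcr7 at 41.52 CPM (32.83 to 33.94). At acute 72 h, Idi1 was at 17.18 CPM in replicate 1 (0.0 to 1.781) and Stard4 at 12.68 CPM in replicate 3 (7.013 to 7.822).

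The step from 24 h to 72 h differed between the chronic and the acute course for Dhcr7 (chronic minus acute -1.74, adjusted p 0.00327) and Insig2 (0.87, adjusted p 0.019) by edgeR's interaction test. The Insig2 call was lost without acute 24 h replicate 2.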

How the results depend on the processing

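No direction of a called value reversed under any alternative run. The number of members called moved by over 1.5 times in these cases. At acute 72 h (3 called) it was 5 with depth class as a term, with higher depth only and with DESeq2, and 1 with a 2-fold minimum. At acute 7 d (4) it was 7 with the depth term and 7 without healthy replicate 4 and chronic 14 d replicate 2 together. At chronic 24 h (12) it was 7 with only the 2 groups compared and 4 with the lower-depth pair. At chronic 14 d (2) it was 1 without the filter, 4 with the depth term and 1 with only the 2 groups compared. From acute 24 h to 7 d (15) it was 9 with the 2-fold minimum. From chronic 24 h to 14 d (11) it was 4 with the depth term, 5 with only the 2 groups and 6 with the 2-fold minimum. The causes were not tested.

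Leaving out 1 library at a time gave 10 to 16 members at acute 24 h, 2 to 3 at acute 72 h, 3 to 7 at acute 7 d (7 without healthy replicate 4), 9 to 15 at chronic 24 h, 4 to 7 at chronic 72 h and 1 to 5 at chronic 14 d (1 without healthy replicates 1, 2 or 3 or chronic 14 d replicates 2 or 3, and 5 without healthy replicate 4). It gave 4 to 6 for chronic against acute 24 h, 8 to 15 from acute 24 h to 7 d, 6 to 14 from chronic 24 h to 14 d, 8 to 9 from acute 24 h to 72 h and 6 to 12 from chronic 24 h to 72 h.

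In the 9 planned comparisons same-numbered replicates did not deviate together (correlations -0.172 to 0.149), so the numbers were not taken to pair the libraries there. The steps from 24 h to 72 h were not checked in this way. In chronic 24 h and chronic 72 h alike, replicates 1 and 2 were of lower depth and replicates 3 and 4 of higher depth. With the replicate block, 13 members were called at acute 24 h, 4 at acute 72 h, 5 at acute 7 d, 13 at chronic 24 h, 6 at chronic 72 h and 2 at chronic 14 d. Library size alone moved the median of all genes by 0.103 to 0.174 in 8 comparisons, and the share of calls that were higher from 59.7% to 72.3% at acute 72 h, 55.3% to 66.2% at acute 7 d, 55% to 69.1% at chronic 72 h, 59.4% to 83% at chronic 14 d, 43.8% to 61.3% from chronic 24 h to 14 d and 48.4% to 63.1% from chronic 24 h to 72 h.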
